A study of Mauremys reevesii with 3 samples.

Results

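The miR-181 family comprised 26 of the 1743 rows in a small RNA count table of embryonic Chinese pond turtles (Mauremys reevesii), a species whose sex is set by the temperature of the egg. Members were the rows whose name, without its species prefix, is miR-181 with any letter, copy number or arm, and a prefix such as hsa or gga says from which species that reference row was taken, not which animal was sequenced. Eggs were incubated at 26 °C, which yields mostly males, at 29 °C, or at 32 °C, which yields mostly females, until Greenbaum stage 16, when the gonad starts to respond to temperature. Each library was made from adrenal-kidney-gonad complexes by pooling the RNA of 3 biological samples, 1 library to a temperature. Every temperature is therefore a single value, with no replicate check and no p-value. All groups shared the species, stage and tissue and differed by temperature alone in the labels. The gonad is only a part of this tissue, and in such bulk samples fewer cells of a type and less RNA per cell cannot be told apart.

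MicroRNAs (miRNAs) are short RNAs cut from a hairpin precursor. One arm of the hairpin, called 5p or 3p after its position, usually guides the repression of messenger RNAs that pair with its seed, bases 2 to 8, while the opposite arm is mostly degraded. The miR-181 family is conserved across vertebrates, its guide is the 5p arm, and mammals carry paralogs a to d from several clusters, in which a copy of miR-181a lies beside a copy of miR-181b and miR-181c lies beside miR-181d. In mice miR-181a sets the sensitivity of the T cell receptor in developing thymocytes, and miR-181b restrains inflammatory signalling in endothelial cells. The family is also expressed in the nervous system.

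The 5p rows are shown first because paralogs differ by few bases and every value below depends on telling them apart. Capitals mark the seed, the letters are those of the deposited table, and reading is from 5′ to 3′.
hsa-miR-181b-5p: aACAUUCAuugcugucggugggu
mmu-miR-181a-5p: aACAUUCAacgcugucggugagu
dre-miR-181c-5p: cACAUUCAuugcugucgguggg
oan-miR-181c-5p: aACAUUCAuuacugucggugggu
hsa-miR-181d-5p: aACAUUCAuuguugucggugggu
ssa-miR-181b-5p: aACAUUCAuugcugucgcuggguu
All 11 rows of the 5p arm had the same seed, and no row of another name had the seed of a member at bases 2 to 8. Against hsa-miR-181b-5p, with positions counted from 1 at its 5′ end, the miR-181a row carried the substitutions U9A, U10C and G21A. Each of the other rows carried 1 substitution over the bases compared. It was A1C in dre-miR-181c-5p, G11A in oan-miR-181c-5p, C12U in hsa-miR-181d-5p and G18C in ssa-miR-181b-5p. The row named miR-181c after zebrafish was therefore miR-181b except at its first base.

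The 3p rows separate the 2 copies of miR-181b, since their 5p arms are one sequence in the table.
hsa-miR-181b-3p: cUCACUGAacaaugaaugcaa
gga-miR-181b-1-3p: uCACUGAAcaaugaaugcaac
hsa-miR-181b-2-3p: cUCACUGAucaaugaaugca
gga-miR-181b-2-3p: uCACUGAUcaaugaaugcaaa
The first of these carried the sequence of the copy called miR-181b-1, as in mmu-miR-181b-1-3p, and differed from hsa-miR-181b-2-3p by A9U. The chicken (gga) rows started 1 base further in, which shifts the seed. Rows that started further still held few reads, with 5, 5 and 7 counts at 26, 29 and 32 °C for mml-miR-181b-1-3p and 2, 1 and 0 for oan-miR-181b-2-3p.

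By paralog letter, 3 rows were miR-181a, 18 miR-181b, 4 miR-181c and 1 miR-181d, with 11 rows on the 5p and 15 on the 3p arm. The arm of 3 rows whose names give none (cfa-miR-181a, cfa-miR-181b and efu-miR-181b) was taken from their sequence. Many rows stood for the same molecule in lengths or species versions, so rows of the family that share at least 16 consecutive bases on one strand were joined into a sequence group, represented by the row with the most counts. This left 12 groups, 4 on the 5p and 8 on the 3p arm. Summing all 5p rows would have counted 50107 instead of 12642 reads at 26 °C, a factor of 3.96. Of the 12 groups, 6 reached at least 10 counts in a library. The other 6, all on the 3p arm and represented by efu-miR-181b, oha-miR-181c-3p, ola-miR-181b-3p, rno-miR-181b-2-3p, ssa-miR-181b-3p and tgu-miR-181b-2-3p, had 0 or 1 count in each library. A count of 0 allows up to 3 counts, or 0.321, 0.312 and 0.312 CPM at 26, 29 and 32 °C (CPM is the count divided by the library total and scaled to 1000000). No row of another name and no predicted row shared 16 bases with a member on either strand.

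Library totals were 9348882, 9624436 and 9613861 counts at 26, 29 and 32 °C, so 1 count was worth 0.107, 0.104 and 0.104 CPM. Intervals below are exact 95% intervals for counting error only. They may be too narrow even for that, because reads were amplified and carried no molecular identifiers. Of the miRNAs that mark parts of this tissue, gonadal miR-202 summed to 813, 1032 and 330 CPM and the kidney list (miR-192, miR-194, miR-215 and miR-30) to 11115, 9071 and 9319 CPM at 26, 29 and 32 °C. Members of the kidney list differed, with ola-miR-192-5p at 38237, 31766 and 25229 counts and hsa-miR-30c-5p at 50205, 41863 and 51485. No list was specific to the adrenal gland. Across all rows the median log2 ratio was -0.13 for 32 over 26 °C and -0.18 for 32 over 29 °C on library totals, against 0.09 and 0.02 with trimmed-mean (TMM) factors, and small ratios have to be read against this shift.

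miR-181b-5p dominated the family in all 3 libraries. Its most counted row, gga-miR-181b-5p, had 12397, 12769 and 11255 counts at 26, 29 and 32 °C. On the CPM scale these were 1326 (interval 1303 to 1350), 1327 (1304 to 1350) and 1171 (1149 to 1193). On library totals the 26 and 29 °C libraries were level and the 32 °C library lay below both, a difference that is lost with TMM factors and with DESeq2 size factors (values below). It ranked 27 of 973 sequence groups of the whole table at every temperature and held 0.418%, 0.421% and 0.376% of the counts summed over those groups. Versions of 20, 21 and 23 bases (cfa-miR-181b, oan-miR-181b-5p and hsa-miR-181b-5p) stood at 97.4% to 99.0% of its count in each library, and such nested rows cannot be taken as separate molecules.

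miR-181a-5p, the thymocyte regulator, was far less counted. The row cfa-miR-181a had 212, 231 and 242 counts at 26, 29 and 32 °C, as did mmu-miR-181a-5p and ola-miR-181a-5p, which hold the same bases at other lengths. Its level was 22.7 CPM (19.7 to 25.9), 24.0 (21.0 to 27.3) and 25.2 (22.1 to 28.6), and these intervals overlapped. miR-181b-5p was counted 58.5 times as often at 26 °C, 55.3 times at 29 °C and 46.5 times at 32 °C. Such a ratio between different sequences also holds any difference in how well each is cloned, which cancels only when the same 2 sequences are compared between libraries.

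The rows oan-miR-181c-5p and hsa-miR-181d-5p were at the edge of detection, unlike dre-miR-181c-5p, which is given further below. oan-miR-181c-5p had 16, 15 and 16 counts, or 1.71 (0.978 to 2.78), 1.56 (0.872 to 2.57) and 1.66 (0.951 to 2.70) CPM at 26, 29 and 32 °C. hsa-miR-181d-5p had 17, 17 and 8 counts, or 1.82 (1.06 to 2.91), 1.77 (1.03 to 2.83) and 0.832 (0.359 to 1.64) CPM. Their intervals overlapped each other at every temperature. Set against gga-miR-181b-5p, from which each differs by 1 base, oan-miR-181c-5p stood at 1.29, 1.17 and 1.42 counts per 1000 and hsa-miR-181d-5p at 1.37, 1.33 and 0.711. ssa-miR-181b-5p, another row 1 base away, stood at 0.403, 0.470 and 0.888 per 1000, on 5, 6 and 10 counts. The mismatches allowed in read assignment are not given in the sources used here, so whether these low counts are separate genes or misassigned miR-181b reads was not tested.

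The zebrafish-named dre-miR-181c-5p was counted more, with 352, 344 and 246 counts at 26, 29 and 32 °C, or 37.7, 35.7 and 25.6 CPM. Per 1000 counts of gga-miR-181b-5p it stood at 28.4, 26.9 and 21.9. Its odds against miR-181b-5p were lower at 32 than at 26 °C by a log2 odds ratio of -0.38 (-0.62 to -0.14), and at 29 over 26 °C the value was -0.08 (-0.30 to 0.15). For 32 over 29 °C the value was -0.30 (-0.55 to -0.06), which also excluded equality. The row dre-miR-181c-5p shares 21 bases with miR-181b-5p and was kept in that sequence group, so it adds nothing to the totals below. Whether its counts are a separate gene or misassigned miR-181b reads was not tested.

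**Figure D1:**
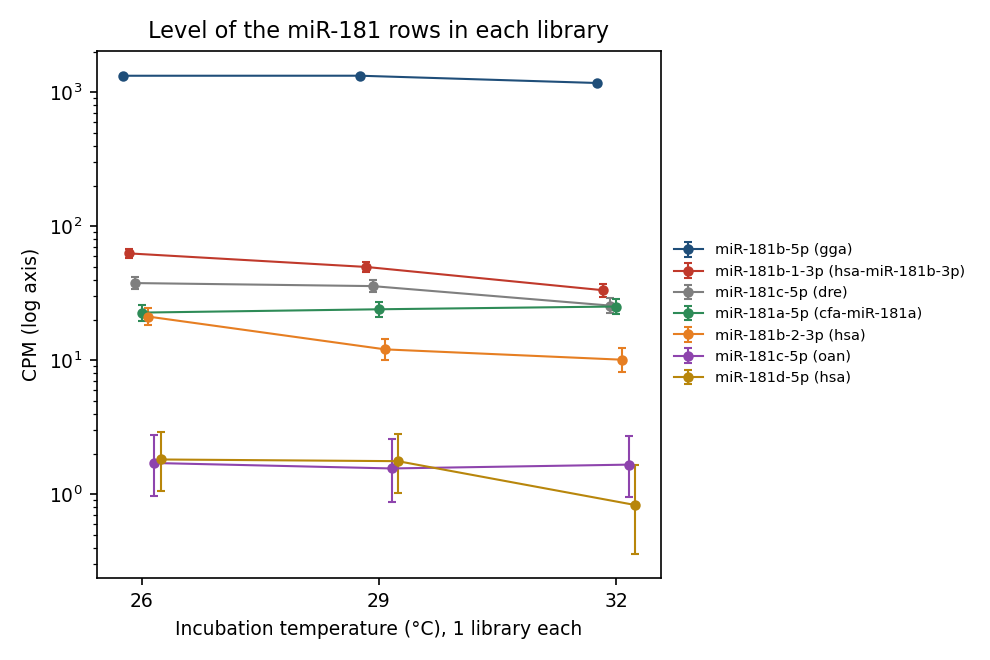
CPM (log axis) of 7 miR-181 rows against incubation temperature, with 1 library per temperature and bars for exact 95% Poisson intervals. miR-181b-5p lies above 1000 CPM throughout, the 3p rows of miR-181b are lower in the warmer libraries, and miR-181a-5p stays between 22.7 and 25.2 CPM.

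On the opposite arm, miR-181b-1-3p was the most counted and both copies were highest at 26 °C. hsa-miR-181b-3p had 586, 478 and 320 counts at 26, 29 and 32 °C, or 62.7 (57.7 to 68.0), 49.7 (45.3 to 54.3) and 33.3 (29.7 to 37.1) CPM, and none of these intervals overlapped. The row that starts 1 base further in, gga-miR-181b-1-3p, had 515, 413 and 276 counts, which is 87.9%, 86.4% and 86.3% of the former. hsa-miR-181b-2-3p had 198, 116 and 97 counts, or 21.2 (18.3 to 24.3), 12.1 (9.96 to 14.5) and 10.1 (8.18 to 12.3) CPM. Here the 26 °C library stood alone, and the intervals at 29 and 32 °C overlapped. The shifted row gga-miR-181b-2-3p followed hsa-miR-181b-2-3p closely with 195, 116 and 93 counts. Like the nested 5p rows, these overlapping 3p rows cannot be taken as separate molecules. Some marker lists were also highest at 26 °C. Among them were the kidney list, at 11115, 9071 and 9319 CPM at 26, 29 and 32 °C, and the epithelial list, at 716, 709 and 618 CPM. Liver miR-122 had 608, 147 and 175 CPM at 26, 29 and 32 °C. The striated muscle list (miR-1, miR-133 and miR-206) had 153, 118 and 109.7 CPM, and the erythroid list (miR-451 and miR-144) 5.24, 2.08 and 2.91 CPM. Members within these lists differed, with gga-miR-1b-3p at 36, 58 and 30 counts and dre-miR-144-5p at 5, 11 and 2. Other lists went other ways. The nervous system list, mostly miR-137, was lowest at 26 °C, and the gonadal, leukocyte and endothelial lists were highest at 29 °C. What part any of these tissues had in the 3p values was not tested. No 3p row of miR-181a or miR-181d was analysed here.

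The order of levels was thus miR-181b-5p, then miR-181b-1-3p, at every temperature. miR-181a-5p and miR-181b-2-3p overlapped at 26 °C and were separate at 29 and 32 °C, where miR-181a-5p was the higher. Between 32 and 26 °C the odds of miR-181a-5p against miR-181b-2-3p differed by a log2 odds ratio of 1.22 (0.76 to 1.68), and between 32 and 29 °C by 0.32 (-0.16 to 0.81). The groups of oan-miR-181c-5p and hsa-miR-181d-5p came last among the 6 groups with at least 10 counts and did not differ beyond their intervals. The row dre-miR-181c-5p, at 37.7, 35.7 and 25.6 CPM, belongs to the miR-181b-5p group and was not ranked apart.

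Between the male-producing 26 °C and the female-producing 32 °C library, the guide arm of the family was nearly level and the opposite arm lower. The 5p total, with each sequence group counted once, was 12642 counts at 26 °C and 11521 at 32 °C, or 1352 against 1198 CPM. Its log2 ratio was -0.17 (-0.21 to -0.14) on library totals, but 0.04 (0.0035 to 0.08) with TMM factors. With the median-of-ratios size factors of DESeq2 it was -0.01 (-0.05 to 0.02). Its sign depends on the scaling, so no direction is drawn. The 3p total was 787 against 418 counts, or 84.2 against 43.5 CPM, a log2 ratio of -0.95 (-1.13 to -0.78). For single members it was -0.91 (-1.11 to -0.71) for hsa-miR-181b-3p and -1.07 (-1.44 to -0.71) for hsa-miR-181b-2-3p. With TMM factors these stood at -0.70 and -0.86, short of 2-fold. Both were lower at 32 °C under every scaling tried.

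On library totals gga-miR-181b-5p stood at -0.18 (-0.22 to -0.14) and dre-miR-181c-5p at -0.56 (-0.80 to -0.32), while the intervals of the other 5p groups included equality. With TMM factors and DESeq2 size factors the value of gga-miR-181b-5p was 0.03 (-0.0023 to 0.07) and -0.02 (-0.05 to 0.02). The log2 ratio of cfa-miR-181a was 0.15 (-0.12 to 0.42), but 0.36 (0.09 to 0.64) with TMM factors and 0.31 (0.04 to 0.59) with DESeq2 size factors, which excluded it. The log2 ratio was -0.04 (-1.14 to 1.05) for oan-miR-181c-5p and -1.13 (-2.55 to 0.16) for hsa-miR-181d-5p, whose 8 against 17 counts were not a detectable difference at this depth. Of the 6 groups with at least 10 counts in either library, 1 was at least 2-fold lower with an interval that excluded equality, hsa-miR-181b-2-3p, and 0 were higher. Over all sequence groups 18.9% were lower and 6.47% higher by this rule, so 1 of 6 is near the background. The median log2 ratio of the 6 groups was -0.55, beside -0.23 over all 371 groups tested. It fell in the gap between hsa-miR-181b-3p at -0.91 and gga-miR-181b-5p at -0.18. As it mixes both arms, it describes neither of them.

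**Figure D2:**
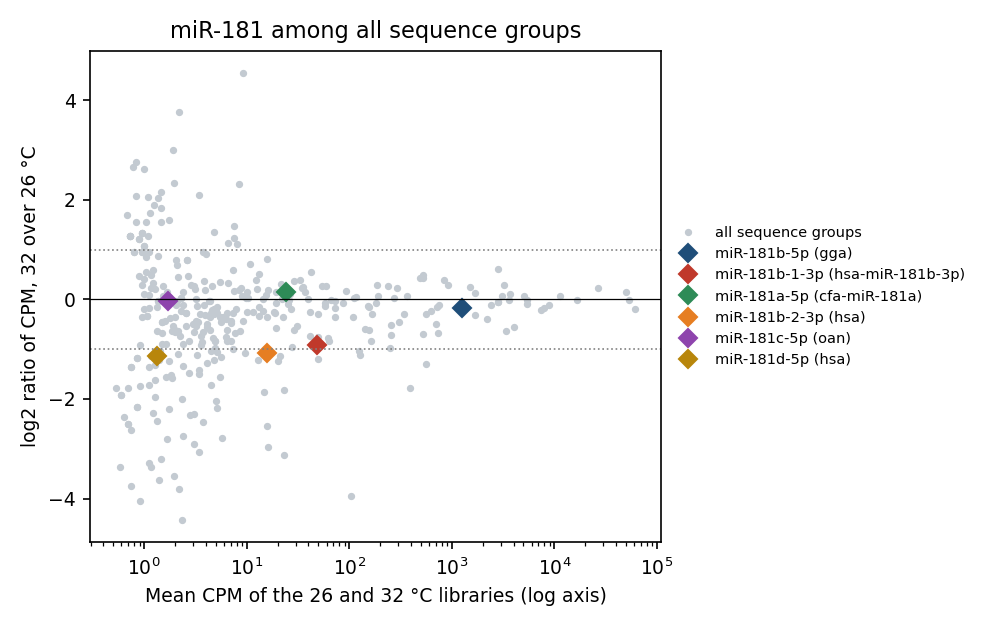
The log2 ratio of CPM for 32 over 26 °C against the mean CPM of both libraries (log axis), with grey points for the 371 sequence groups that have at least 10 counts in either library and diamonds for the 6 miR-181 groups. Dotted lines mark 2-fold. miR-181b-5p lies near equality at -0.18, and both 3p groups of miR-181b lie near the lower line.

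At 29 against 26 °C, the guide arm was the same and the opposite arm already lower. The 5p total was 13032 counts at 29 °C, a log2 ratio of 0.00 (-0.03 to 0.04) that stayed between -0.01 and 0.02 under the other scalings. The 3p total was 599 counts, a log2 ratio of -0.44 (-0.59 to -0.28). Its members stood at -0.81 (-1.16 to -0.48) for hsa-miR-181b-2-3p and -0.34 (-0.51 to -0.16) for hsa-miR-181b-3p. The odds of miR-181b-1-3p against miR-181b-2-3p were higher at 29 °C by a log2 odds ratio of 0.48 (0.09 to 0.87), so the 2 copies differed unequally in this pair. No group was 2-fold apart among 6, beside 15.1% of all sequence groups, and 0 of 6 is too few to read against that share. cfa-miR-181a stood at 0.08 (-0.19 to 0.36).

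At 32 against 29 °C, the 2 copies of the 3p arm gave different values, though their difference lay within counting error. The log2 ratios were -0.58 (-0.79 to -0.37) in hsa-miR-181b-3p and -0.26 (-0.66 to 0.15) in hsa-miR-181b-2-3p, while the log2 odds ratio of one against the other was -0.32 (-0.78 to 0.14). gga-miR-181b-5p stood at -0.18 (-0.22 to -0.14) on library totals and at 0.02 (-0.02 to 0.05) with TMM factors. cfa-miR-181a stood at 0.07 (-0.20 to 0.34) on library totals and at 0.27 with TMM factors, with an interval of 7.0e-05 to 0.53 that only just excluded equality. With DESeq2 size factors it stood at 0.22 (-0.05 to 0.49), which included equality. No group was 2-fold apart among 6, beside 18.3% of all sequence groups. The comparisons share libraries, so their values are not independent of each other.

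**Figure D3:**
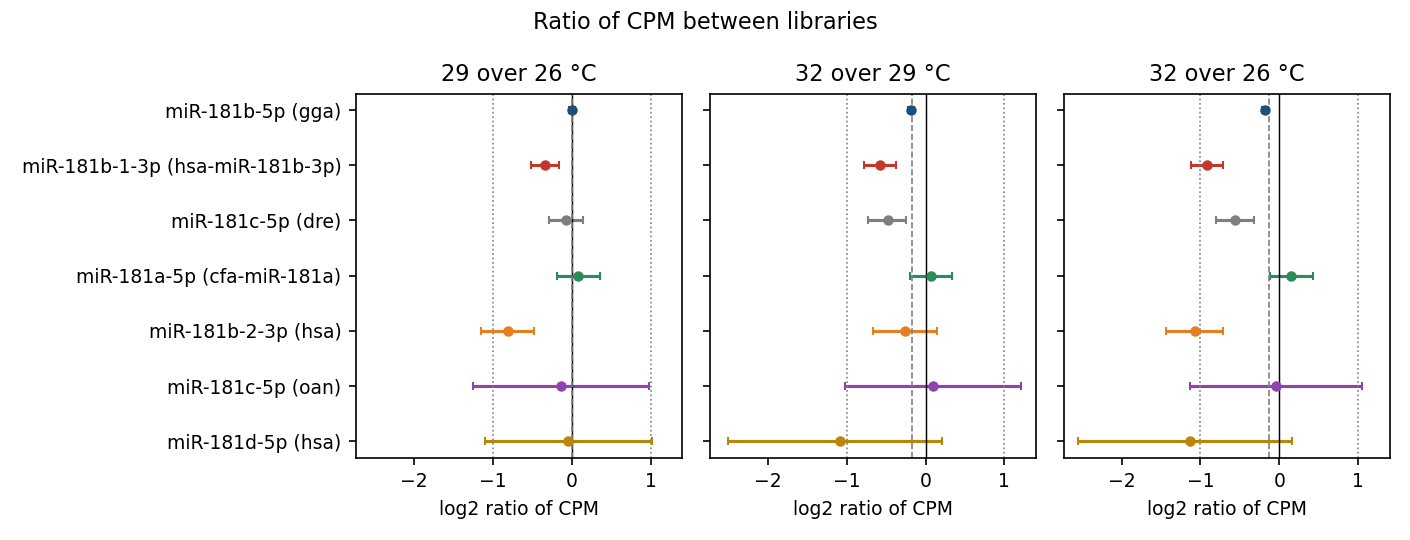
The log2 ratio of CPM on library totals for 7 miR-181 rows in each pair of libraries, with bars for exact 95% intervals. The dashed line is the median of all rows with at least 10 counts and dotted lines mark 2-fold. miR-181b-1-3p lies below equality in all 3 pairs and the intervals of miR-181a-5p include equality in all 3. With TMM factors those for 32 over 26 °C and 32 over 29 °C exclude it. With DESeq2 size factors only that for 32 over 26 °C does.

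The balance of the arms of miR-181b lay further towards 5p in each warmer library, a measure inside each library that does not depend on scaling. There were 15.8 (14.7 to 17.0) counts of gga-miR-181b-5p per count of both 3p copies at 26 °C. The ratio was 21.5 (19.8 to 23.4) at 29 °C and 27.0 (24.5 to 29.8) at 32 °C, and none of these intervals overlapped. The 3p copies made up 5.95%, 4.45% and 3.57% of the miR-181b counts. The log2 odds ratio of 5p to 3p was 0.77 (0.59 to 0.95) for 32 over 26 °C, 0.44 (0.28 to 0.60) for 29 over 26 °C and 0.33 (0.14 to 0.52) for 32 over 29 °C.

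The 3p copies differed beyond counting error only for 29 over 26 °C, where the log2 odds ratio of miR-181b-1-3p against miR-181b-2-3p was 0.48 (0.09 to 0.87). For 32 over 26 °C it was 0.16 (-0.26 to 0.58) and for 32 over 29 °C -0.32 (-0.78 to 0.14). Over miR-181b-1-3p the 5p ratio was 21.2 (19.5 to 23.0), 26.7 (24.4 to 29.3) and 35.2 (31.5 to 39.4) at 26, 29 and 32 °C, with no overlap. Over miR-181b-2-3p it was 62.6 (54.4 to 72.4), 110.1 (91.7 to 133.3) and 116.0 (95.02 to 143.2), with an overlap of the last 2. The 5p reads of both copies are one sequence, so these ratios do not give the strand choice of a single hairpin.

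**Figure D4:**
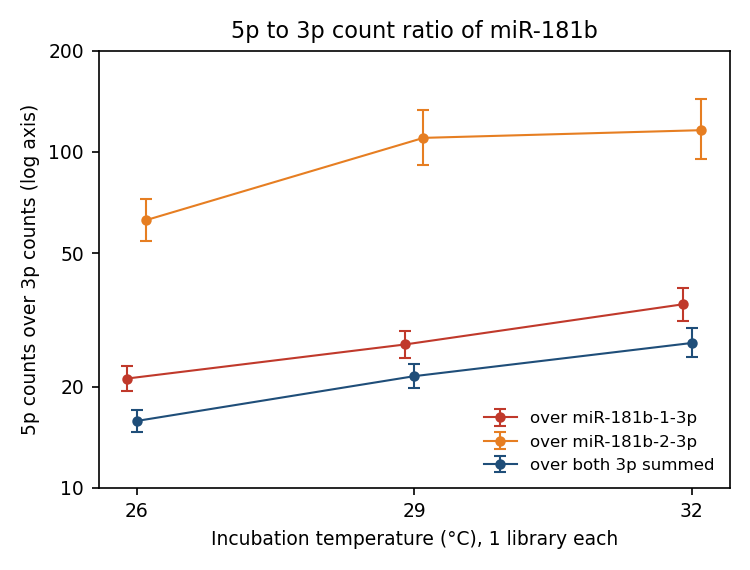
Counts of miR-181b-5p divided by counts of each 3p copy, and by both summed (log axis), against incubation temperature, with bars for exact 95% intervals and 1 library per temperature. The summed ratio is 15.8, 21.5 and 27.0 at 26, 29 and 32 °C.

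Other hairpins had arm differences in the same direction, fewer had them in the opposite one, and the difference in miR-181b lay within their range. Of 52 hairpin names with at least 30 counts on each arm, 36.5% had an interval above equality for the major against the minor arm at 32 over 26 °C, and 26.9% and 32.7% did at 29 over 26 °C and 32 over 29 °C. miR-181b was among them in each pair, here paired by name with miR-181b-1-3p, at log2 odds ratios of 0.73 (0.53 to 0.94), 0.34 (0.16 to 0.52) and 0.40 (0.19 to 0.61). The medians of the other 51 names were 0.11, 0.10 and 0.11, and 12, 11 and 16 of them lay above miR-181b. In the same order 3, 4 and 5 of them had an interval below equality. At 32 over 26 °C, 2 of them were at least 2-fold towards the minor arm. Differences of at least 2-fold towards the major arm made up 9.62% of names at 32 over 26 °C, and miR-181b was not one of them. Some names repeat the same molecules.

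**Figure D5:**
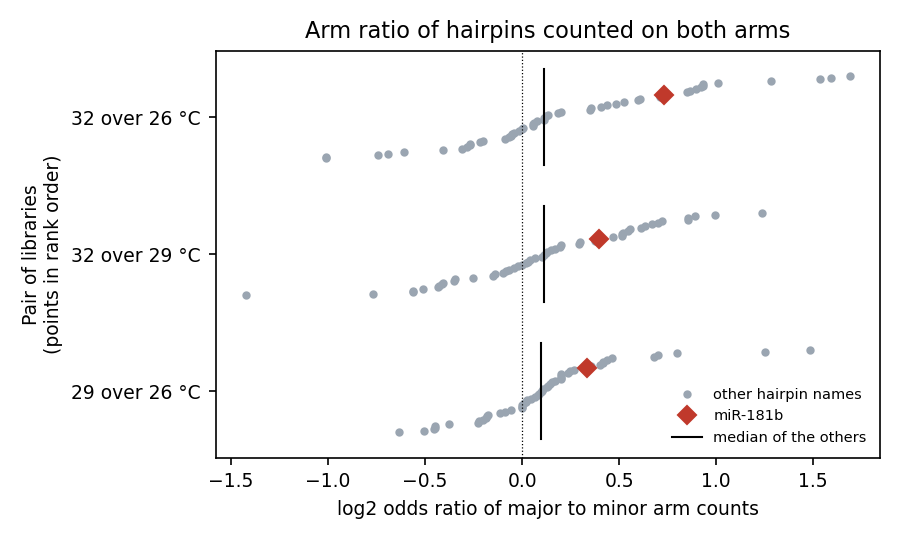
The log2 odds ratio of major to minor arm counts for 52 hairpin names in each pair of libraries, sorted within each pair, with a diamond for miR-181b and a bar at the median of the others. miR-181b lies to the right of that median in each pair, with 12, 16 and 11 names beyond it for 32 over 26, 32 over 29 and 29 over 26 °C.

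Within the 5p arm, miR-181a took a slightly larger share in the warm library. It made up 1.68% (1.46% to 1.92%) of the 5p total at 26 °C, 1.77% (1.55% to 2.01%) at 29 °C and 2.10% (1.85% to 2.38%) at 32 °C, by exact Clopper-Pearson intervals. The log2 odds ratio against the other 5p groups was 0.33 (0.06 to 0.61) for 32 over 26 °C, 0.08 (-0.20 to 0.36) for 29 over 26 °C and 0.25 (-0.02 to 0.52) for 32 over 29 °C. Only the first excluded equality.

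The epithelial list (miR-200, miR-429 and miR-205, with no miR-141 row analysed here) summed to 716, 709 and 618 CPM at 26, 29 and 32 °C. The lists of cell types known to express the family are given beside these values. Leukocyte miRNAs (miR-223, miR-142, miR-150 and miR-146, with no miR-155 row analysed here) summed to 70.3, 135 and 67.5 CPM at 26, 29 and 32 °C, highest at 29 °C, where the 5p total of miR-181 was 1354 CPM against 1352 at 26 °C. Endothelial miR-126 summed to 8703, 8844 and 7695 CPM, log2 ratios of -0.18, 0.02 and -0.20 for 32 over 26, 29 over 26 and 32 over 29 °C, beside -0.17, 0.00 and -0.18 for the 5p total of miR-181. In the same order the epithelial list stood at -0.21, -0.01 and -0.20, and the median of all rows at -0.13, 0.00 and -0.18. The likeness was therefore not particular to the endothelial list. Nervous system miRNAs (miR-9, miR-128 and miR-137, with no miR-124 row analysed here) summed to 6.74, 14.0 and 15.8 CPM. Most of this was miR-137, with dre-miR-137-3p at 47, 107 and 105 counts. By contrast mmu-miR-128-3p had 3, 5 and 5 counts and ssa-miR-9b-5p 1, 0 and 2, too few to read a direction. What part these cell types had in the miR-181 values was not tested.

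The profile of the 5p total over the 3 libraries was compared with 96 other named sequence groups that had at least 100 counts in every library. The measure of likeness was the Euclidean distance between centred log2 CPM values. The nearest was bta-miR-99a-5p, at a distance of 0.016 and with 1523, 1562 and 1402 counts. It was followed by oha-miR-126-5p of endothelium at 0.017, dre-miR-10c-5p from a Hox cluster at 0.040, the epithelial xla-miR-429 at 0.044 and hsa-miR-92a-3p at 0.046. In all, 7 groups lay within 0.1. With 3 libraries this describes flat profiles and does not single out any of them.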

How the data were processed

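Small RNA was sequenced from adrenal-kidney-gonad complexes, 1 library per temperature from pooled RNA, per the labels' protocols. Per the file headers, the deposited columns held raw read counts and TPM for every row. In the deposited table TPM was the count over its column total with no length term, which was checked in all rows that had counts in the library. FastQC and Bowtie come from the submitters' processing notes. Their versions, the genome build, mismatches allowed and handling of reads with several matches are not given in the sources used here. Coordinates are not printed, since no genome was read.

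Counts were scaled to CPM on the table total. Pairs of libraries were compared by the ratio of CPM with an exact conditional (Clopper-Pearson) interval, and ratios inside libraries by Fisher's conditional odds ratio with its exact interval. A group was called apart at 2-fold or more with an interval excluding equality, with at least 10 counts in either library. Groups of the whole table were joined on either strand. No test was possible with 1 library per temperature. Every member with at least 10 counts is named, and the 5 nearest profiles were named by distance. The members, lists and rules were chosen with earlier results of these data known. Alternatives were TMM factors (edgeR 4.0.16), size factors (DESeq2 1.42.0), other totals, count minimums, row merging and thinning. Python 3.11.15, scipy 1.17.1 and R 4.3.3 were used. Simulated data served as a check of the CPM ratios between libraries.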

Additional observations from a re-analysis of the deposited data

How the results depend on the processing

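No paired analysis was possible because there was 1 library to a temperature. The 5p total for 32 over 26 °C moved from a log2 ratio of -0.17 to 0.0401 with TMM factors and -0.0118 with DESeq2 size factors, and for 32 over 29 °C from -0.18 to 0.0213 and -0.0249. The other scalings, the deposited TPM, summing all 5p rows and thinning left it within its interval, and for 29 over 26 °C every alternative did. For 32 over 26 °C, 1 group was at least 2-fold apart; this became 0 with TMM factors and 0 with DESeq2 size factors, where hsa-miR-181b-2-3p stood at -0.86 and -0.91, and 2 with no rows merged or only identical sequences merged, both of them miR-181b-2-3p rows. No count minimum and a minimum of 50 counts left 1. The arm ratio of miR-181b and the share of miR-181a stayed within their intervals under the alternatives run, which for the arm ratio (all miR-181b rows summed, and the chicken-named 3p rows) were chosen after seeing the data. Lowering the arm minimum to 10 counts added no hairpin name of the family. Low counts limit what can be said of oan-miR-181c-5p and hsa-miR-181d-5p, and the origin of the dre-miR-181c-5p counts was not tested.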
